A study of Mus musculus with 4 samples.

Results

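The genes described here are the mouse collagen genes, the 44 of 31053 genes in the count tables whose symbol is Col, a number, the letter a and a second number and nothing more. They were chosen by symbol alone, and all 44 had at least 5 UMIs in the series, each UMI standing for 1 RNA molecule that was captured and tagged. The samples are 4 single-cell libraries of CD31+ CD45- cells sorted from the aorta-gonad-mesonephros region, where the first blood stem cells arise, at embryonic day 10.5. The genotypes compared were mir-223 -/- (KO, 2 libraries) and wild type (WT, 2 libraries), and no treatment is named. The mir-223 -/- allele is described no further in the labels, and it is not given whether a genotype's libraries hold separate embryos or share a pool. The p-values therefore speak of variation from library to library, part of which can be technical. The comparison asks which collagen genes each cell class in the sort expressed and whether their levels differed between KO and WT.

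Collagens are triple helices of 3 alpha chains, each chain from its own gene. Endothelial cells rest on a basement membrane whose network is built of type IV collagen, with the multiplexins XV and XVIII bound to it; the C-terminal piece of the type XVIII chain is endostatin, known as an inhibitor of vessel growth. Mesenchymal cells secrete the fibrillar types I, III and V, cells on the way to cartilage make types II, IX and XI, and types XIII, XXIII and XXV are anchored in the plasma membrane. miR-223 is a microRNA best known from myeloid blood cells, and a microRNA pairs through its seed, bases 2 to 8, with sites in the 3' UTR of mRNAs.

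Several members lie side by side in the genome. Col4a1 and Col4a2, which encode the 2 chains of the common type IV heterotrimer, lie head to head on chromosome 8 with start sites 21 bases apart in the GENCODE annotation of GRCm38. Col4a5 and Col4a6 on the X chromosome lie head to head with start sites 1309 bases apart, and Col4a3 and Col4a4 on chromosome 1 with start sites 72 bases apart. Col3a1 and Col5a2 on chromosome 1 lie tail to tail, separated by 24614 bases. The windows of 300 bases around the Col4a1 and Col4a2 starts are shown because both genes went together through all classes below. They are from RefSeq (GRCm38.p6), each on its gene's strand, chr8:11312777-11313076 on the minus strand for Col4a1 and chr8:11312555-11312854 on the plus strand for Col4a2. Capitals mark the 78 bases that both windows share, read from opposite strands.
Col4a1: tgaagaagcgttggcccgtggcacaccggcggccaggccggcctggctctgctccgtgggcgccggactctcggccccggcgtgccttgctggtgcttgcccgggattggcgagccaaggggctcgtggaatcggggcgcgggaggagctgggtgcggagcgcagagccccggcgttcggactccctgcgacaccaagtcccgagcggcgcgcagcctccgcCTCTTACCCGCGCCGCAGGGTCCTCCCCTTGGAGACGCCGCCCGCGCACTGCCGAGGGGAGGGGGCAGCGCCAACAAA
Col4a2: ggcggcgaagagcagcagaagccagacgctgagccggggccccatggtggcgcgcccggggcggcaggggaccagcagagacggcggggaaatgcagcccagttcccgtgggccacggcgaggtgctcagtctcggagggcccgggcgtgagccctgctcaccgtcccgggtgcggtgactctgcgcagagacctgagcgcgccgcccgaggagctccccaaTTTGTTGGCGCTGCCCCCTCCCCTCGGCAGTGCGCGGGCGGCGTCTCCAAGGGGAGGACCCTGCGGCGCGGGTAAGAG
The shared stretch has 73.1% G and C. It holds 1 GGGCGG, counted on both strands, and no CCAAT and no TATAAA. Of all 32851 RefSeq windows of this length, 35.66% held GGGCGG, 37.41% held CCAAT and 13.62% held TATAAA. Of the 38 windows of the 35 members that matched by symbol, 23 held GGGCGG, 13 held CCAAT and 5 held TATAAA. These are matches of letters and show no binding.

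The microRNA that the KO lacks is shown with its seed in capitals, from RefSeq, together with the complement of that seed, AACTGAC, in capitals in the 3' UTR of the 2 members with such a match that are described below. Col13a1 lies on chromosome 10 and Col25a1 on chromosome 3, and both stretches are 26 bases from GENCODE transcripts on GRCm38.
mmu-miR-223-3p: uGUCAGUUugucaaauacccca
Col13a1: ttttacattttAACTGACggtcatta
Col25a1: ccacctactgaAACTGACtaaaacca
In an annotated 3' UTR, AACTGAC was found in 3 of 44 collagen genes (6.82%), the third being Col6a4, against 2043 of 21102 genes (9.68%).

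The deposited tables held 6119 and 10299 barcodes in KO replicates 1 and 2, against 3917 and 11186 in WT replicates 1 and 2. Total counts ranged over the 4 libraries between 95158639 and 181682389 UMIs. Pairs of libraries shared 8 to 28 barcodes, at most 0.327% of the smaller library. After filters on cells and doublets, 4127 and 5870 cells were kept in the KO libraries and 2295 and 6874 in the WT libraries, with medians of 20157 and 18673 UMIs against 30186 and 18168.5 UMIs. KO replicate 1 and WT replicate 1 stood apart. KO replicate 1 had Xist, the RNA of the inactive X chromosome, in 0.0341% of endothelial-like cells, against 43.9% in KO replicate 2 and 51.2% and 43.4% in the WT libraries, and WT replicate 1 was the smallest and the deepest per cell. F630028O10Rik, the host transcript of miR-223, had 2.37 and 3.90 CPM (UMIs per 1e6 UMIs of the library or class) in KO libraries, against 0.105 and 0.330 CPM in WT libraries. The mature microRNA has no poly(A) tail and is not counted by a 3' kit, so this does not measure its loss.

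Cells were clustered without the collagen genes, and the 25 clusters were named "X-like" from marker genes. Endothelial-like clusters other than hemogenic ones held 71.0% and 84.9% of the cells of KO libraries, against 74.2% and 86.1% in WT libraries. Their mean detection of 12 pan-endothelial markers was high (0.871 and 0.910 of cells in both arterial-like clusters). Other endothelial cells were the endothelial-like clusters 3, 4, 6 and 22, which met the limits of no subtype. Clusters 3, 4 and 6 had cell cycle genes such as Cdc20, Cdc6 and Prc1 among their leading genes. Clusters 4 and 6 also had Kcne3, a leading gene of the sprouting-like cluster, so this class is not a separate kind of vessel. Mesenchymal-like cells (clusters 12, 13 and 15), which the sort for CD31 should leave out, were 12.6% and 4.31% of KO libraries and 14.7% and 3.43% of WT libraries, with pan-endothelial detection of 0.223 to 0.241. Smaller classes were neural-like, epithelial-like, germ cell-like, megakaryocyte-like and erythroid-like. The other 2 clusters stayed unnamed. A level is the CPM of UMIs summed over all cells of a class in a library, given as mean ± SD over the 4 libraries; the 3' kit counts 1 tag per molecule whatever the gene's length. Differences between classes are descriptions without a test, because the classes came from the same cells.

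Collagen RNA was richest in arterial-like cells, and endothelial and mesenchymal cells reached like totals with different families. All 44 genes together made 3363 ± 420 CPM in arterial-like cells, 1694 ± 213 CPM in sprouting-like cells and 773 ± 30.4 CPM in sinusoidal-like cells (SD, n = 4 libraries). Mesenchymal-like cells had 1538 ± 149 CPM, and all endothelial-like cells together 1571 ± 187 CPM. Germ cell-like cells had 139 ± 5.31 CPM. In endothelial-like cells, type IV chains were 63.5% of collagen UMIs and multiplexins 29.8%, with 4.35% for fibrillar chains. In mesenchymal-like cells fibrillar chains made 64.4%, type IV chains 11.8% and multiplexins 4.89%. Over all barcodes, Col4a1, Col4a2 and Col18a1 carried 82.7% of the 1007122 collagen UMIs.

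**Figure D1:**
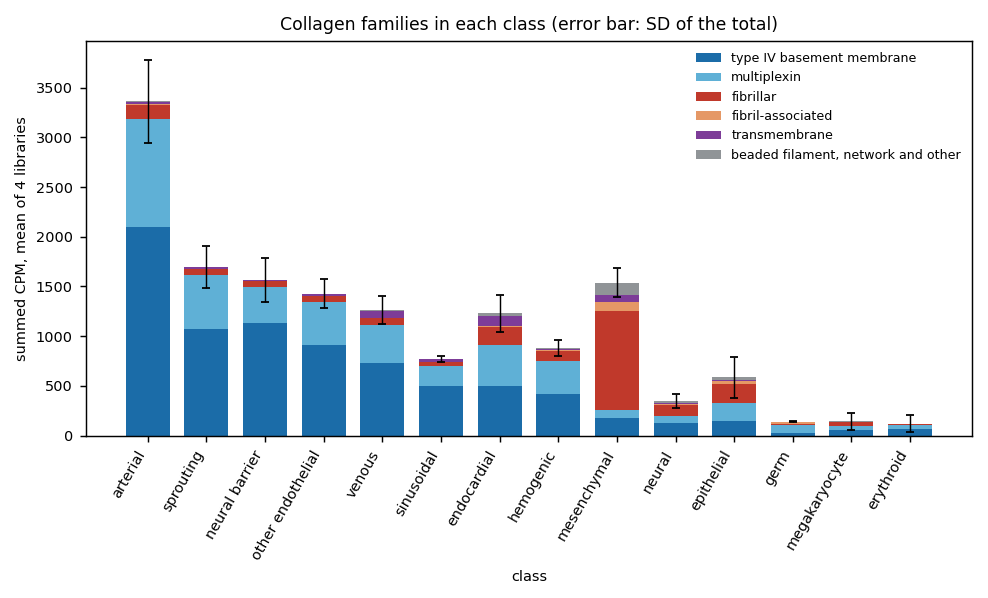
Stacked bars give the CPM of 6 collagen families summed per class (y axis, from 0; mean of 4 libraries, KO and WT pooled), and the black bar is the SD of the total. Type IV chains and multiplexins fill the bars of endothelial classes and fibrillar chains that of mesenchymal-like cells, at totals of 1571 CPM for all endothelial-like cells (not drawn) and 1538 CPM for mesenchymal-like cells.

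**Figure D2:**
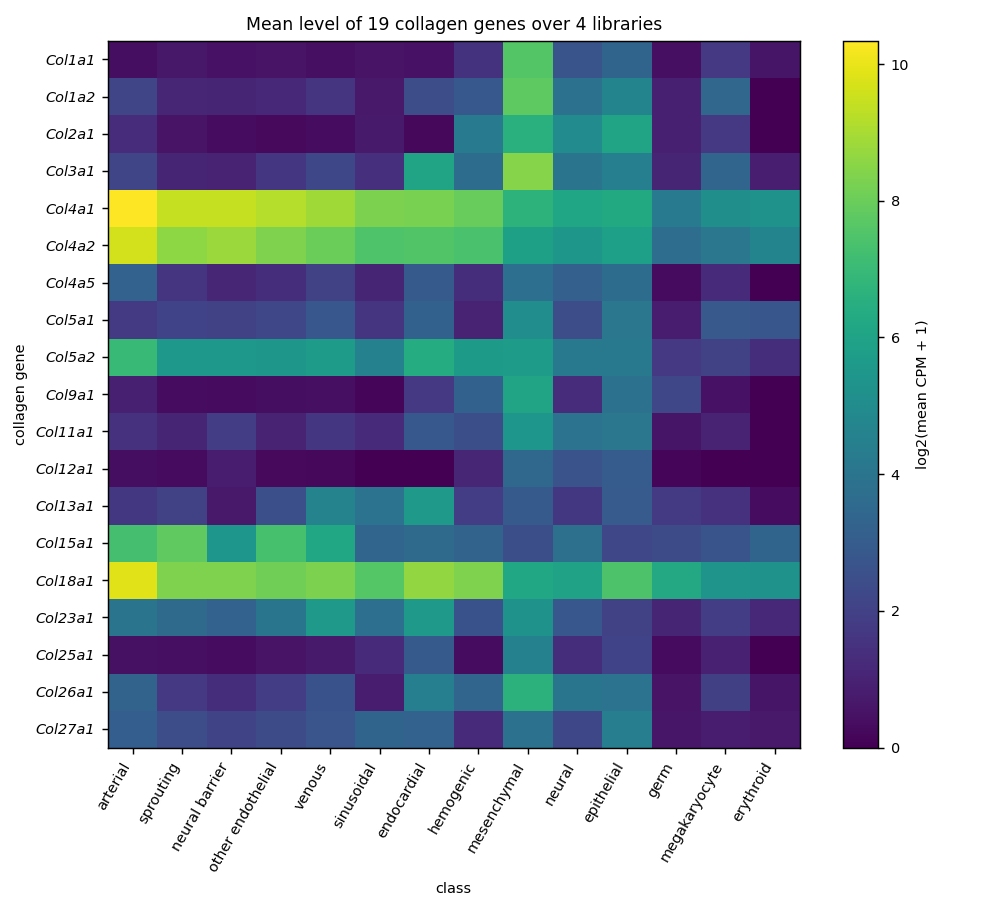
Colour gives log2(mean CPM + 1) over 4 libraries for the 19 collagen genes with at least 10 CPM in a named class (rows) in 14 classes (columns). Col4a1, Col4a2 and Col18a1 are bright in all endothelial columns, and Col1a1, Col1a2, Col9a1 and Col25a1 are brightest in the mesenchymal column, as is Col2a1, which is also bright in the epithelial and neural columns.

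Col4a1, a chain of the basement membrane network, had 1049 and 1296 CPM in arterial-like cells of KO libraries, against 1267 and 1576 CPM in those of WT libraries. Its lowest arterial value lay above the highest value of every other class. The order went on with sprouting-like cells at 689 ± 108 CPM, neural barrier-like cells at 683 ± 115 CPM, other endothelial cells at 586 ± 78.8 CPM and venous-like cells at 471 ± 65.1 CPM (SD, n = 4 libraries), and among these 4 each overlapped the next over libraries. Sinusoidal-like (316 ± 26.5 CPM) and endocardial-like cells (302 ± 18.6 CPM) overlapped each other and lay apart from both neighbours in the order. Hemogenic-like cells, which turn on blood genes such as Runx1, had 247 ± 21.7 CPM, and mesenchymal-like cells 103 ± 12.3 CPM. Within each library the arterial-like level was 2.75 ± 0.161 times the venous-like and 4.08 ± 0.347 times the sinusoidal-like level. Col4a2 kept the same order but for 2 swaps between overlapping neighbours, with 624 and 822 CPM in arterial-like cells of KO libraries and 762 and 956 CPM in those of WT libraries. The ratio of Col4a1 to Col4a2 UMIs ran over the classes with at least 20 cells in each library only between 1.37 ± 0.157 in epithelial-like and 1.86 ± 0.103 in venous-like cells, while Col4a1 itself ran between 18.0 and 1297 CPM. Across 14 classes the log2 means of both genes correlated with r = 0.997 (Spearman's rho 0.991). The classes share libraries, so this is a description. The part of free RNA in the ratio and the correlation was not tested.

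The other type IV chains were low. Col4a5 had 12.6 ± 3.59 CPM in mesenchymal-like cells and 8.57 ± 1.65 CPM in arterial-like cells, and the highest class mean of its neighbour Col4a6 was 5.16 CPM, in epithelial-like cells. Col4a3 and Col4a4, the chains of the mature kidney filter, had highest class means of 0.0420 and 1.09 CPM.

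The 2 multiplexins parted. Col18a1, the source of endostatin, was like Col4a1 highest in arterial-like cells, with 883 and 898 CPM in KO and 974 and 952 CPM in WT libraries, apart from all other classes. Endocardial-like cells had 409 ± 71.5 CPM, and sprouting-like, hemogenic-like, neural barrier-like and venous-like cells 312 to 327 CPM, each overlapping the next. Unlike Col4a1, which had 18.0 ± 1.62 CPM in germ cell-like cells, Col18a1 was held there at 75.6 ± 4.23 CPM. That was as much as in mesenchymal-like cells (70.1 ± 4.41 CPM). Col15a1 was highest in sprouting-like cells, with 169 and 237 CPM in KO and 258 and 223 CPM in WT libraries. Other endothelial cells (161 ± 31.8 CPM) and arterial-like cells (158 ± 52.5 CPM) overlapped these. Venous-like cells had 72.9 ± 12.9 CPM and neural barrier-like cells 42.2 ± 9.23 CPM, each apart from its neighbours in the order. In sinusoidal-like cells Col15a1 was at 3.88 and 15.2 CPM in KO libraries, against 9.54 and 9.03 CPM in WT libraries, no more than in classes outside the endothelium (3.59 to 13.2 CPM). Endocardial-like cells had 0 CPM (a count of 0, which allows up to 4.98 CPM) and 3.29 CPM in KO libraries, against 36.0 and 4.33 CPM in WT libraries, and the 36.0 CPM came from the 16 cells of WT replicate 1.

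**Figure D3:**
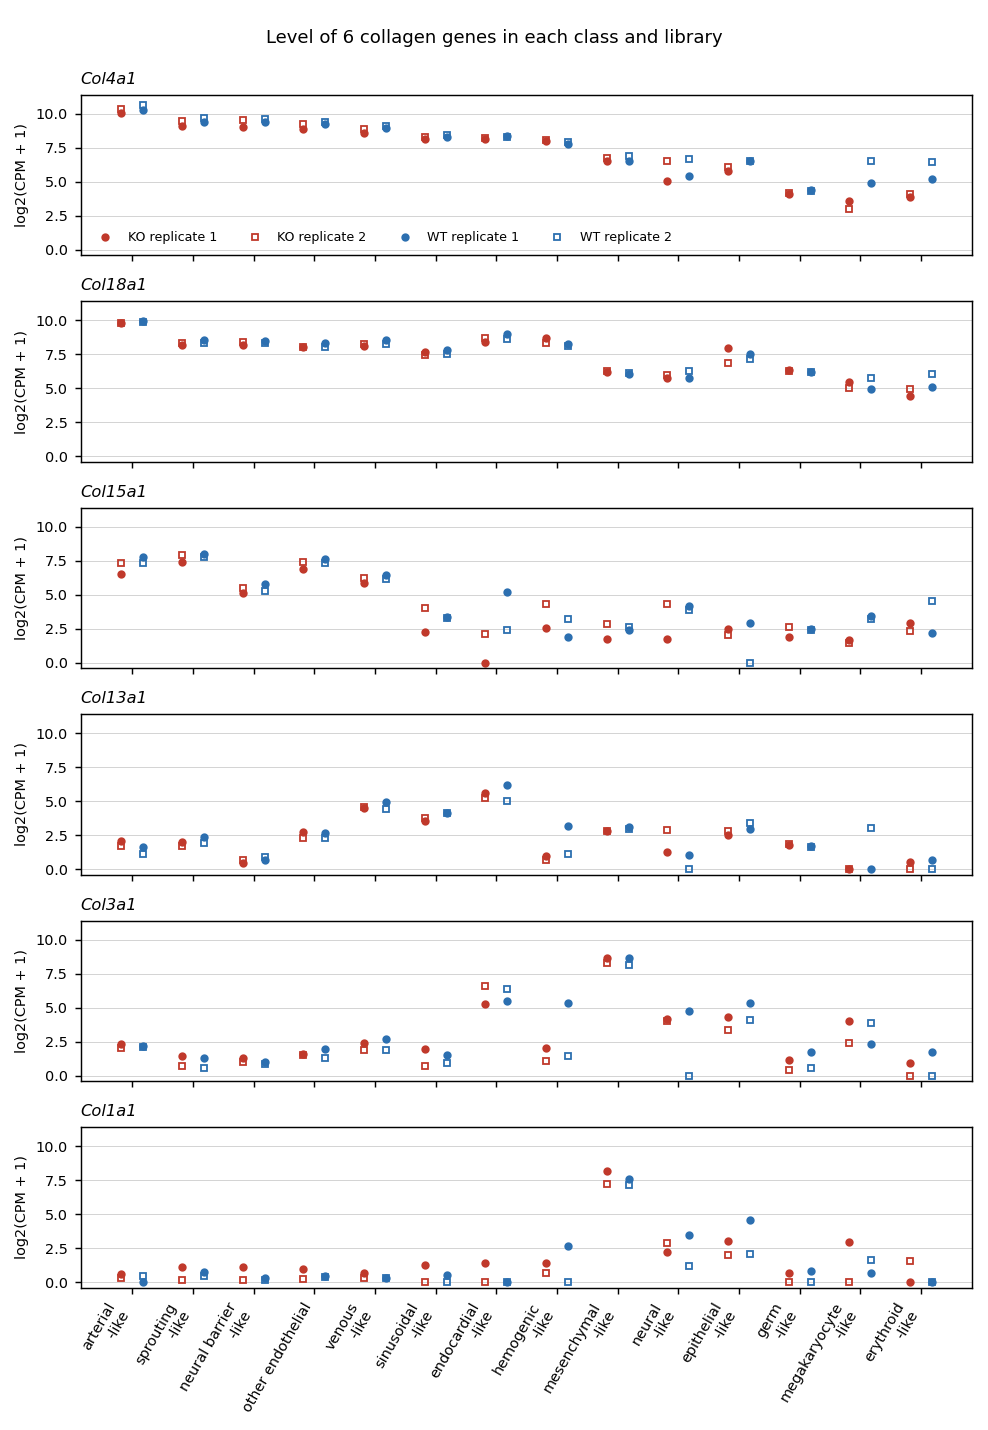
Each panel gives log2(CPM + 1) of 1 gene (y axis) in 14 classes (x axis), 1 point per library, KO left (red) and WT right (blue), replicate 1 filled and replicate 2 open. Col4a1 and Col18a1 peak in arterial-like cells, Col15a1 in sprouting-like cells, Col13a1 in endocardial-like and venous-like cells, and Col3a1 and Col1a1 in mesenchymal-like cells. Points of a class lie far apart for some low values, as for Col15a1 in endocardial-like cells (0 to 36.0 CPM) and Col3a1 in hemogenic-like cells (1.14 to 40.4 CPM).

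The arterial-like class held 2 clusters with different collagens. Cluster 5, led by the gap junction genes Gja4 and Gja5, and cluster 10, led by Htra1, Tmem100 and Nkx2-3, had like Col18a1 (914 ± 49.8 and 950.3 ± 98.4 CPM). Col15a1 was at 145 and 219 CPM in KO and 284 and 212 CPM in WT libraries in cluster 5, but at 12.2 and 15.1 CPM in KO and 40.1 and 10.9 CPM in WT libraries in cluster 10. That is 13.2 ± 5.14 times more in cluster 5, and no library overlapped. Col5a2, a chain of the type V collagen that fibrils form around, went the other way, with 271 ± 67.1 CPM in cluster 10 and 64.5 ± 10.3 CPM in cluster 5. The ratio was 4.16 ± 0.408 (SD, n = 4 libraries). Col4a5 (20.2 ± 3.45 against 3.57 ± 0.989 CPM), Col3a1 (9.74 ± 1.19 against 0.798 ± 0.380 CPM) and Col1a2 (9.0 ± 1.71 against 1.08 ± 0.950 CPM) were also higher in cluster 10, with no overlap between libraries. The neural barrier-like class also split. Cluster 8, with Spock2, Foxq1 and Mfsd2a, had 1.80 ± 0.0691 times the Col4a1, 2.06 ± 0.182 times the Col18a1 and 2.17 ± 0.522 times the Col15a1 of cluster 0.

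**Figure D4:**
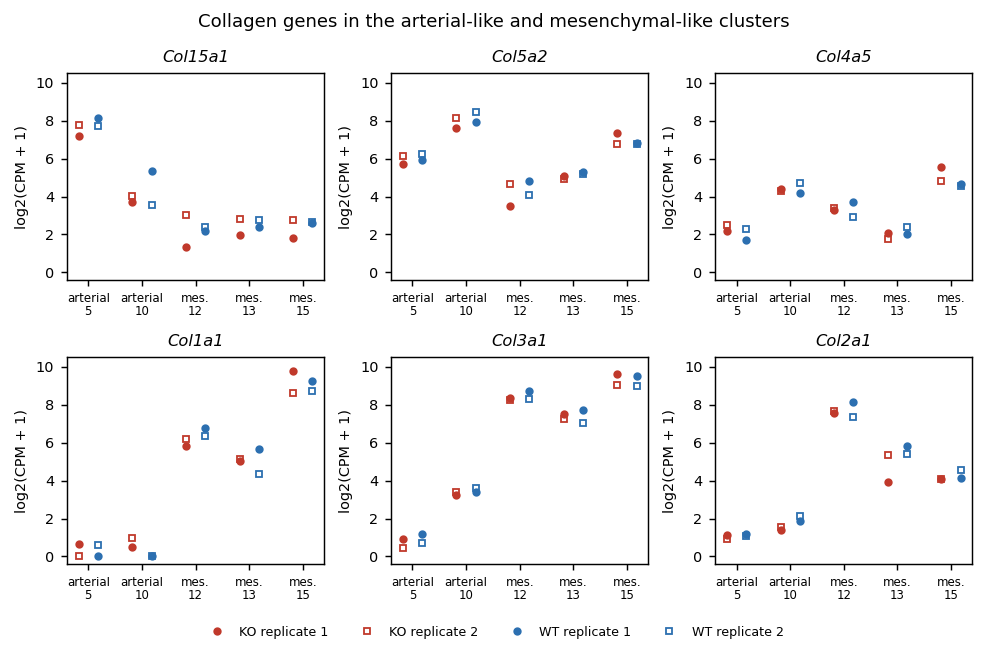
Each panel gives log2(CPM + 1) of 1 gene (y axis) in arterial-like clusters 5 and 10 and mesenchymal-like (mes.) clusters 12, 13 and 15 (x axis), 1 point per library, KO left (red) and WT right (blue). Col15a1 is high in cluster 5 alone, Col5a2 in clusters 10 and 15, Col1a1 in cluster 15 and Col2a1 in cluster 12.

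The membrane-anchored collagens marked other vessels than Col4a1 did. Col13a1, a transmembrane chain of cell adhesion sites, had 46.5 and 36.9 CPM in endocardial-like cells of KO libraries, against 72.0 and 30.9 CPM in those of WT libraries. Venous-like cells followed at 23.7 ± 3.98 CPM and sinusoidal-like cells at 14.2 ± 3.05 CPM, and these 3 classes did not overlap each other or the rest. In neural barrier-like cells Col13a1 had 0.622 ± 0.191 CPM, so that venous-like cells had 40.8 ± 12.7 times as much. Col23a1 had 46.0 and 44.7 CPM in venous-like cells of KO libraries and 50.9 and 43.4 CPM in those of WT libraries, 4.31 ± 0.375 times the sprouting-like level. Endocardial-like cells (45.8 ± 17.6 CPM) and mesenchymal-like cells (38.0 ± 3.21 CPM) held about as much Col23a1. Col25a1, a neuronal membrane collagen needed for motor nerves to enter muscle in mice, was found mainly in mesenchymal-like cells (22.5 ± 5.73 CPM), 34.1 ± 4.76 times the venous-like level.

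The fibrillar type I chains Col1a1 and Col1a2 set mesenchymal-like cells apart. Col1a1 had 287 and 148 CPM there in KO libraries, against 190.0 and 138 CPM in WT libraries, while endothelial-like cells had 0.938 and 0.174 CPM in KO and 0.358 and 0.257 CPM in WT libraries. The ratio of mesenchymal-like to endothelial-like level was 557 ± 224 for Col1a1, 144 ± 30.5 for Col1a2 and 114 ± 18.0 for Col3a1. Col1a2 stood at 216 ± 21.4 CPM and Col3a1 at 350.3 ± 61.9 CPM in mesenchymal-like cells. Col5a1 (32.2 ± 4.83 CPM) was also highest there, but its partner chain Col5a2 was not, with 51.8 ± 5.95 CPM against 125 ± 16.6 CPM in arterial-like and 84.8 ± 26.3 CPM in endocardial-like cells. Col5a2 thus kept 22.2 to 49.7 CPM in venous-like, sprouting-like, neural barrier-like, sinusoidal-like and other endothelial cells, where its tail-to-tail neighbour Col3a1 had 1.07 to 3.80 CPM. Across the 14 classes the log2 means of Col3a1 and Col5a2 correlated with r = 0.303, against 0.935 for Col1a1 and Col1a2. By rank the contrast was smaller, with Spearman's rho of 0.424 against 0.6.

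Endocardial-like cells, named from Gata4, Tbx20 and Pdlim3, had Col3a1 without Col1a1. Col3a1 was at 38.2 and 93.5 CPM in KO libraries, against 45.0 and 83.4 CPM in WT libraries. Only 1 UMI of Col1a1 was counted beside 339 of Col3a1 and 20 of Col1a2 over the 4 libraries, so that Col1a1 made 0.278% of these 3 genes' UMIs (exact 95% interval 0.00703 to 1.54%). In mesenchymal-like cells Col1a1 made 26.3% (25.7 to 26.8%). In arterial-like cells the share was 4.72% (2.38 to 8.29%) and in neural-like cells 14.5% (10.1 to 19.8%). With UMIs pooled over the libraries, the endocardial-like, arterial-like and neural-like intervals all lie wholly below the mesenchymal-like one. Those of venous-like (3.505 to 8.27%) and other endothelial cells (9.12 to 15.65%) do too. A low share was thus not particular to endocardial-like or arterial-like cells. The sprouting-like (10.64 to 27.55%) and germ cell-like (3.40 to 28.2%) intervals reach into the mesenchymal-like one. These intervals cover counting error only. The part of free RNA in these values was not tested. In hemogenic-like cells Col3a1 was at 3.22 and 1.14 CPM in KO libraries, against 40.4 and 1.75 CPM in WT libraries, and the high value is from the 11 cells of WT replicate 1. The same 11 cells had 72.8 CPM of Col2a1 and 32.3 CPM of Col9a1, which were at most 0.644 CPM in the other 3 libraries. Without them hemogenic-like cells averaged 2.04 ± 1.07 CPM of Col3a1 (SD, n = 3), in place of 11.6 CPM over all 4 libraries.

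Within the mesenchymal-like class the collagens sorted by cluster. Cluster 15, with the smooth muscle and fibroblast genes Acta2, Dcn, Postn and Lum, had 892 and 386 CPM of Col1a1 in KO libraries, against 599 and 417 CPM in WT libraries. Cluster 12, with the sclerotome genes Pax1 and Meox1 and with Foxd1, had 56.2 and 73.3 CPM in KO libraries and 107 and 79.2 CPM in WT libraries. Cluster 13, with the limb and flank genes Prrx1 and Shox2, had 34.0 ± 12.6 CPM. The order of Col3a1 was the same, at 636 ± 139 CPM in cluster 15, 340.3 ± 59.7 CPM in cluster 12 and 169 ± 35.7 CPM in cluster 13. Cartilage-type chains had another order. Col2a1, the main chain of cartilage fibrils, was at 192 and 203 CPM in KO and 281 and 164 CPM in WT libraries in cluster 12, which is 12.3 ± 3.99 times the level of cluster 15 (17.7 ± 3.21 CPM). Col9a1, which sits on the surface of type II fibrils, had 115 ± 25.0 CPM in cluster 12 and 40.6 ± 18.7 CPM in cluster 15. Col26a1 had 150 ± 19.3 CPM in cluster 12, 75.2 ± 18.1 CPM in cluster 13 and 61.3 ± 8.35 CPM in cluster 15. Col11a1, which nucleates cartilage fibrils, had 42.0 ± 4.02 CPM in the class as a whole, Col12a1 10.2 ± 3.94 CPM and Col27a1 14.1 ± 1.16 CPM. Col27a1 averaged 20.3 CPM in epithelial-like cells, where 69.6 CPM in the 23 cells of WT replicate 1 stood beside 2.33 and 9.17 CPM in KO libraries and 0 CPM in WT replicate 2, where a count of 0 allows up to 9.64 CPM.

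The mean of the 4 libraries stayed under 10 CPM in every named class for the other 25 members. Their highest class mean was under 1 CPM for 10 genes and 1 to 10 CPM for 15. The type VI chains Col6a1, Col6a2 and Col6a3, which form beaded filaments around cells, had their highest means, 6.34 to 7.38 CPM, in mesenchymal-like cells, and Col14a1 its highest, 8.82 CPM, there too. Col9a2 had its highest mean, 8.77 CPM, in germ cell-like cells. Among them, 12 members had under 100 UMIs in the whole series, so that little can be said of them at this depth.

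Counted per cell, with each cell thinned to 5000 UMIs and shallower cells left out, Col4a1 was seen in 99.2% and 98.9% of arterial-like cells of KO libraries, against 98.9% and 98.8% in WT libraries. Germ cell-like cells, which make no vessel basement membrane, had it in 2.30% and 6.80% of cells of KO libraries and 9.09% and 9.86% of WT libraries, and erythroid-like cells had it in 5.63% and 10.5% of cells of KO libraries and 4.35% and 25.0% of WT libraries. Mesenchymal-like cells lay above this, at 25.6% and 34.8% in KO and 31.5% and 33.9% in WT libraries. Col1a1 was seen in 31.4% and 28.3% of mesenchymal-like cells of KO libraries and 38.9% and 32.2% of WT libraries. In endothelial-like cells it was seen in 0.551% and 0.0408% of KO and 0.297% and 0.120% of WT cells, and in germ cell-like cells in 1 of 87 and 0 of 147 KO cells and in 0 of 44 and 0 of 142 WT cells, and the endothelial shares are not read as expression. The counts of 0 allow shares of up to 2.04% in the KO library and 6.82% and 2.11% in the WT libraries. Col3a1 was seen in 9.09% and 37.5% of endocardial-like cells of KO libraries, against 25.0% and 27.4% in WT libraries, and in 1.36 to 1.51% of all endothelial-like cells. Without thinning the mean share of Col4a1 rose to 51.1% in germ cell-like cells, whose medians were 36472 to 57394 UMIs per cell.

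Between KO and WT, no collagen gene passed an adjusted p of 0.05 in any tested class with edgeR's quasi-likelihood test, adjusted over all genes of the class, under the settings of the reported fit. Other settings called Col9a2 and Col5a3 in mesenchymal-like and Col15a1 in arterial-like cells, as given with these classes. In endothelial-like cells as a whole, 30 collagen genes were tested, of which 0 were called, against 22 of all 14640 genes (0.150%). An unadjusted p under 0.05 was reached by 0 of them in edgeR, against 1.74% of all genes, and DESeq2 called 0 as well. Their median log2 change was -0.02, against 0.00 over all genes, with 14 above and 16 below 0. Col4a1 had 508 and 661 CPM in KO libraries, against 612 and 745 CPM in WT libraries. The log2 change was -0.20 ± 0.16 (SE; 95% interval -0.57 to 0.17), so that a drop of more than 0.57 or a rise of more than 0.17 on the log2 scale lies outside it. Col4a2 had 287 and 407 CPM in KO and 342 and 429 CPM in WT libraries, a change of -0.14 (-0.57 to 0.29). Both were lowest in KO replicate 1 and highest in WT replicate 2, and the middle libraries of the groups overlap. Col18a1 stood at 326 and 353 CPM in KO and 378 and 348 CPM in WT libraries (-0.08, -0.36 to 0.19). Col15a1 had 80.8 and 120 CPM in KO and 139 and 116 CPM in WT libraries, overlapping, with the lowest value again in KO replicate 1 (-0.33, -0.77 to 0.11; adjusted p = 0.9997 in edgeR). Without that library the change was -0.06.

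The 5 smallest unadjusted p-values in endothelial-like cells belonged to Col4a6 (0.71, 95% interval -0.21 to 1.63), Col15a1, Col5a1 (-0.31, -0.76 to 0.13), Col9a2 (-0.52, -1.34 to 0.30) and Col4a4 (-0.72, -1.95 to 0.50). All but Col15a1 lie under 5 CPM. Col5a2 (0.00, -0.32 to 0.31) and Col3a1 (0.03, -0.42 to 0.47) had estimates close to 0. For the type I chains the intervals were wide, at -0.72 to 2.39 for Col1a1 and -0.52 to 0.85 for Col1a2.

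The endothelial subtypes gave the same count, 0 collagen genes called by edgeR and 0 by DESeq2. In arterial-like cells 16 were tested, where 5 of 11613 genes passed (0.0431%), in venous-like cells 16 (9 of 12154 genes, 0.0740%) and in sinusoidal-like cells 12 (7 of 10664 genes, 0.0656%). Sprouting-like cells allowed 13 (4 of 11048 genes, 0.0362%), neural barrier-like cells 15 (5 of 11991 genes, 0.0417%) and other endothelial cells 17 (7 of 12692 genes, 0.0552%). At an unadjusted p under 0.05 there was 1 member in arterial-like, 2 in sinusoidal-like and 1 in sprouting-like cells, and 0 in the other 3. Over all genes, the shares under this limit were 2.46% in arterial-like, 1.70% in sinusoidal-like and 1.39% in sprouting-like cells. In arterial-like cells this was Col15a1, with 90.1 and 160 CPM in KO libraries, against 218 and 163 CPM in WT libraries (-0.57, 95% interval -1.11 to -0.03; adjusted p = 0.9999 in edgeR). Both KO libraries lay below both WT libraries, the second by a small margin, and KO replicate 1 was far the lowest. Cluster 5, the arterial-like cluster rich in Col15a1, made 55.7% and 67.8% of arterial-like cells in KO libraries, against 74.6% and 70.6% in WT libraries. Within cluster 5 the Col15a1 levels of KO and WT libraries overlapped. The part of this mix in the change of arterial-like cells was not tested. Without KO replicate 2 edgeR called Col15a1 there, but this fit leaves KO replicate 1 alone in its group and takes the spread from the WT libraries. In sinusoidal-like cells Col13a1, with the seed match shown above, had 10.5 and 12.9 CPM in KO libraries, against 16.7 and 16.7 CPM in WT libraries (-0.50, -0.97 to -0.02). Col25a1, the other gene with the match, had 1.60 and 2.12 CPM in KO and 1.04 and 0.550 CPM in WT libraries (1.29, 0.06 to 2.52). Neither passed the adjusted threshold. Elsewhere Col13a1 and Col25a1 changed by -0.27 and -0.26 in mesenchymal-like and by -0.17 and -0.50 in venous-like cells. The changes were 0.05 and 0.15 in other endothelial cells, and -0.20 and 0.07 in all endothelial-like cells together. In arterial-like cells, where only Col13a1 was tested, KO libraries had 3.29 and 2.27 CPM and WT libraries 2.10 and 1.23 CPM (0.84, -0.13 to 1.80). Col13a1 changed by -0.36 in sprouting-like and by 0.27 in germ cell-like cells. The intervals of all these changes include 0. The sprouting-like member was Col1a2, at 0.579 and 0.748 CPM in KO and 1.66 and 1.65 CPM in WT libraries. Col4a1 was below 0 in all 6 subtypes, with estimates of -0.27 to -0.11 and intervals that all include 0. The 6 share their 4 libraries and are no independent repeats.

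**Figure D5:**
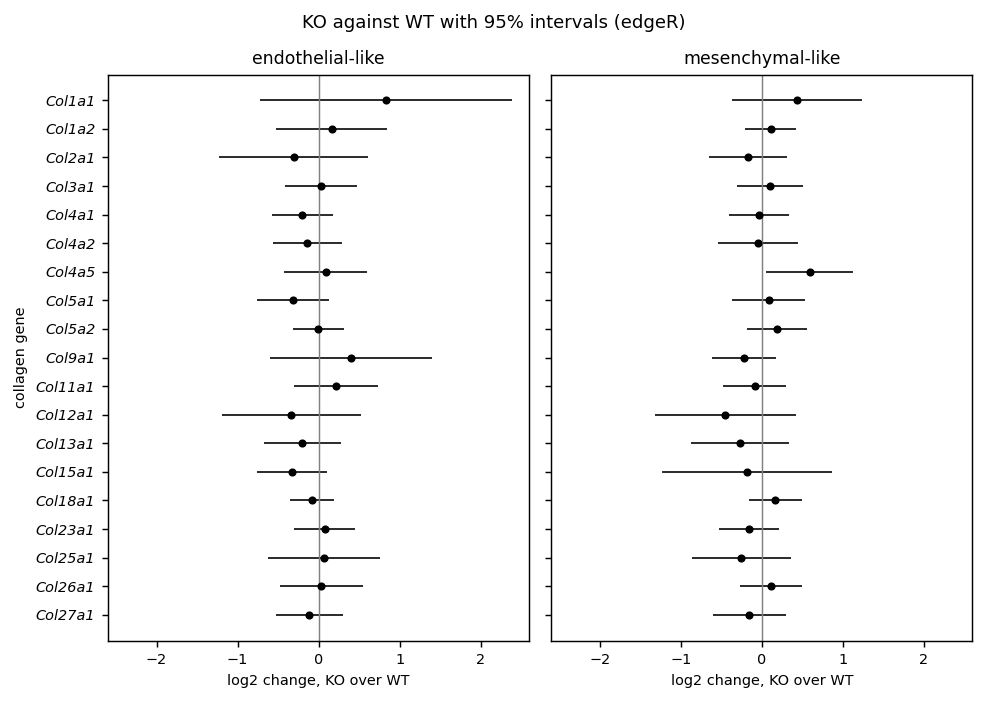
Points give the log2 change of KO over WT (x axis; edgeR) and bars its 95% interval for the 19 collagen genes with at least 10 CPM in a class (y axis), in endothelial-like and mesenchymal-like cells. Every interval but that of Col4a5 in mesenchymal-like cells (0.05 to 1.13) includes 0, and those of Col4a1 reach from -0.57 to 0.17 and from -0.41 to 0.34.

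In mesenchymal-like cells 30 collagen genes were tested, and edgeR called 0 and DESeq2 0, where 1 of 12026 genes passed (0.00832%). An unadjusted p under 0.05 was reached by 4 of them, against 2.36% of all genes. Without a filter on low counts, edgeR called 1 of them, Col9a2. With replicate number as a block, edgeR called Col9a2 and Col5a3, though no label ties same-numbered libraries to each other. Col9a2, a type IX chain, had 2.57 and 3.59 CPM in KO libraries, against 10.1 and 6.78 CPM in WT libraries, with no overlap (-1.50 ± 0.34 (SE), -2.25 to -0.75; adjusted p = 0.802 in edgeR). Without WT replicate 2 edgeR called it, with an adjusted p of 0.0271, in a fit where the lone WT library is assumed to vary like the KO libraries, and the estimates with 1 library left out ran between -1.71 and -1.17. Its type IX partners were Col9a1 at 66.5 and 53.6 CPM in KO and 80.9 and 61.3 CPM in WT libraries (-0.22, -0.61 to 0.18) and Col9a3 at 3.58 and 4.18 CPM in KO and 7.02 and 3.84 CPM in WT libraries (-0.53, -1.33 to 0.27). Col5a3, a minor type V chain, had 2.66 and 2.79 CPM in KO libraries and 0.309 and 0.904 CPM in WT libraries (2.39, 0.97 to 3.80). The X-linked neighbours Col4a5 (17.7 and 12.2 CPM in KO, 10.9 and 9.49 CPM in WT libraries) and Col4a6 (7.62 and 4.38 CPM in KO, 4.13 and 2.26 CPM in WT libraries) had changes of 0.59 (0.05 to 1.13) and 0.91 (0.04 to 1.78). Both were highest in KO replicate 1, the library without Xist, and that library also held the largest share of cluster 15, where Col4a5 is highest. Without it the estimate of Col4a5 was 0.27. Cluster 15 made 36.6% and 26.1% of mesenchymal-like cells in KO libraries and 23.7% and 26.7% in WT libraries. The part of either in these changes was not tested. The fifth smallest p was that of Col8a1 (-1.28, -2.76 to 0.20).

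For the main mesenchymal chains the groups overlapped or the intervals included 0. Col1a1, with 287 and 148 CPM in KO and 190.0 and 138 CPM in WT libraries, changed by 0.44 (95% interval -0.37 to 1.24), and without KO replicate 1 the estimate turned to -0.12. Col1a2 had 223 and 222 CPM in KO and 234 and 185 CPM in WT libraries (0.11, -0.21 to 0.43). Col3a1 had 403 and 315 CPM in KO and 402 and 281 CPM in WT libraries (0.10, -0.30 to 0.50), high in replicate 1 of both genotypes. Col5a1 (0.09, -0.36 to 0.53), Col5a2 (0.19, -0.18 to 0.56), Col18a1 (0.17, -0.16 to 0.49), Col4a1 (-0.04, -0.41 to 0.34), Col4a2 (-0.04, -0.54 to 0.45) and Col15a1 (-0.18, -1.23 to 0.87) were near 0 or wide.

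Outside endothelium and mesenchyme, edgeR and DESeq2 also called 0 members. Germ cell-like cells allowed 8 (14 of 10398 genes passed, 0.135%), neural-like cells 10 (1 of 8558, 0.0117%) and epithelial-like cells 4 (2 of 4258, 0.0470%). The unadjusted p was under 0.05 for 0, 0 and 1 of them, beside 3.25%, 2.23% and 3.05% of all genes. That 1 was Col2a1 in epithelial-like cells, with 37.2 and 30.6 CPM in KO libraries, against 149 and 45.0 CPM in WT libraries (-1.45, -2.54 to -0.35). The high value is from 23 cells of WT replicate 1. Endocardial-like, hemogenic-like, megakaryocyte-like and erythroid-like cells had a library with under 20 cells and were not tested.

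The KO effect itself was compared between mesenchymal-like and endothelial-like cells of the same libraries with an interaction term in edgeR. Of 14964 genes 6 passed (0.0401%), and 0 of the 37 collagen genes tested did. An unadjusted p under 0.05 was reached by 5, against 5.31% of all genes. For Col18a1 the change in mesenchymal-like cells exceeded that in endothelial-like cells by 0.29 (95% interval 0.11 to 0.48; adjusted p = 0.599 in edgeR), and for Col4a1 by 0.20 (0.05 to 0.36). Col5a3 (2.19, 0.50 to 3.89), Col5a1 (0.42, 0.00 to 0.85) and Col9a1 (-0.66, -1.30 to -0.01) were the others.

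Genes that process and bind collagen were looked at in 6 lists of 89 genes. With edgeR, 0 of them passed in any tested class. In endothelial-like cells the synthesis and secretion list was tested with 22 members (14 above and 8 below 0, median log2 change 0.04), maturation and crosslinking with 10 (3 and 7, -0.04), receptors with 7 (1 and 6, -0.18), basement membrane partners with 16 (5 and 11, -0.13), fibril-associated proteins with 11 (3 and 8, -0.23) and degradation with 9 (6 and 3, 0.06), beside a median of 0.00 over all genes. In mesenchymal-like cells the medians ran from -0.03 for receptors to 0.15 for synthesis and secretion. In arterial-like cells 12 basement membrane partners were tested (3 above and 9 below 0, median -0.22). Of these, 3 had an unadjusted p under 0.05 in edgeR, against 2.46% of all genes. They were Lama4 (-0.45), Lamc1 (-0.38) and Nid2 (-0.47). From the other lists, Itga2 (-0.64) and Pcolce2 (1.25) reached this limit there.

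Of the synthesis genes, Serpinh1, the collagen chaperone of the endoplasmic reticulum, was at 955 and 772 CPM in endothelial-like cells of KO libraries and 969 and 727 CPM in those of WT libraries (log2 change 0.04). Ppib, a prolyl isomerase that helps chains fold, had 637 and 628 CPM in KO and 649 and 654 CPM in WT libraries (-0.03), and P4hb, a subunit of prolyl 4-hydroxylase, 176 and 166 CPM in KO and 166 and 162 CPM in WT libraries (0.08). These genes were thus shared between both cell classes, since mesenchymal-like cells had 754 and 561 CPM of Serpinh1 in KO and 689.7 and 491 CPM in WT libraries (0.18), with Ppib at 549 ± 22.4 CPM (-0.03) and P4hb at 177 ± 15.4 CPM (0.17; SD, n = 4 libraries). Sparc, a matrix protein that binds collagen IV and fibrils, had 918 and 1066 CPM in endothelial-like cells of KO libraries, against 1028 and 1068 CPM in those of WT libraries (-0.06). Mesenchymal-like cells had 360 and 329 CPM of it in KO libraries, against 286 and 299 CPM in WT libraries (0.26). There both KO libraries lay above both WT libraries (adjusted p = 0.9998 in edgeR). Pxdn, which crosslinks the type IV network, was at 64.6 ± 5.11 CPM in endothelial-like (-0.05) and 47.9 ± 4.43 CPM in mesenchymal-like cells (0.01). Bmp1, which cuts the C-propeptide from fibrillar chains, had 28.0 ± 3.99 CPM in endothelial-like cells (-0.07), and Pcolce, which enhances that cut, 88.4 ± 11.2 CPM in mesenchymal-like cells (0.17).

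Among receptors, Itgb1, the beta chain of all collagen-binding integrins, had 250 and 317 CPM in endothelial-like cells of KO libraries and 256 and 391.5 CPM in those of WT libraries (-0.18). Its partners Itga1 and Itga2 had 58.4 ± 11.8 CPM (-0.09) and 27.0 ± 5.27 CPM (-0.24), and both were higher in replicate 2 of each genotype. Mesenchymal-like cells had 152 ± 20.7 CPM of Itgb1 (-0.03), 34.9 ± 5.11 CPM of Ddr2, a receptor tyrosine kinase for fibrillar collagen (-0.23), and 20.5 ± 2.596 CPM of Mrc2, which takes up collagen fragments (-0.03). Of the basement membrane genes, Hspg2, which encodes perlecan, stood at 204 ± 26.2 CPM in endothelial-like cells (-0.13), Fn1, fibronectin, at 174 ± 18.7 CPM (0.12), and Nid1, which links laminin to type IV collagen, at 152 ± 11.39 CPM (-0.01). In mesenchymal-like cells Fn1 had 182 ± 7.46 CPM (0.02), Nid1 41.1 ± 2.56 CPM (0.15) and the laminin chain Lamb1 39.3 ± 3.39 CPM (-0.01). Hspg2 had 26.4 ± 4.03 CPM there, so Hspg2 and Nid1 were, like Col4a1, higher in endothelial-like cells in each of the 4 libraries, while Fn1 was about level between both classes.

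Of the fibril-associated genes, endothelial-like cells held mainly Bgn, the small proteoglycan biglycan, at 106 ± 16.0 CPM (-0.07), the microfibril gene Fbn2 at 64.7 ± 7.82 CPM (0.20), and Tgfbi at 15.8 ± 4.45 CPM (-0.35). In mesenchymal-like cells Fbn2 had 157 ± 14.3 CPM (-0.07). Lum, the proteoglycan lumican, had 142 and 83.1 CPM in KO and 108 and 64.2 CPM in WT libraries (0.42), high in replicate 1 of both genotypes. Postn, periostin, had 130 and 43.6 CPM in KO libraries, against 47.5 and 39.1 CPM in WT libraries (1.05), with KO replicate 1 the highest, as for Col1a1. Of the degradation list, the inhibitor Timp3 had 137 ± 17.3 CPM in endothelial-like cells (-0.14), the lysosomal protease gene Ctsb 130 ± 17.0 CPM (0.06) and Mmp14, a membrane-bound collagenase, 97.97 ± 10.0 CPM (0.21). Mesenchymal-like cells had 68.5 ± 10.5 CPM of Ctsb (0.24), 65.7 ± 5.54 CPM of Mmp14 (0.01) and 53.8 ± 8.72 CPM of the gelatinase gene Mmp2 (-0.06).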

How the data were processed

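The files were the UMI count matrices that the authors deposited, 1 per library, of a 10x 3' kit, with barcodes already called as cells. They were written by Cell Ranger 3.1.0 per the file headers, and Seurat 4 is named in the submitters' processing notes. Which genome build and annotation the counts rest on is not stated in the sources used here. Gene positions, 3' UTRs and sequences came from GENCODE and RefSeq tables of GRCm38, matched by gene ID or symbol, and 30934 genes of the files had a position.

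Barcodes passed with 1000 genes or more and mitochondrial UMIs under 10%. Doublets were called from 2 simulated doublets per cell at a rate of 0.8% per 1000 barcodes, which gave 4.90% and 8.24% for the KO libraries and 3.13% and 8.95% for the WT libraries. Cells were clustered (Leiden, resolution 1) on 2000 variable genes without collagens, 40 components and 20 neighbours. Clusters were named "X-like" from marker lists, with limits on their fold and detection that were set after the clusters were seen. The collagen genes, the lists of partner genes and the tests were chosen with earlier results of these data known.

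UMIs were summed per class and library. KO and WT were compared with the quasi-likelihood test of edgeR 4.0.16 (R 4.3.3; TMM, filterByExpr, robust) in classes with at least 20 cells in each library, with Benjamini-Hochberg adjustment over all genes of the class and a threshold of 0.05. DESeq2 1.42.0, RLE scaling, no filter, thinned sums, kept doublets, clustering with collagens, a replicate block and leaving out each library were the alternatives. On simulated counts for endothelial-like cells (14611 genes), edgeR recovered 77 of 98 genes changed by 1 on the log2 scale and 98 of 98 changed by 2, with 9 false calls. For mesenchymal-like cells (12044 genes) it recovered 65 of 97 and 96 of 97, with 13 false calls. The simulation gave every gene the same spread between libraries and changed many more genes than passed in the data. Its counts therefore do not give the power of the tests on the real libraries. Shares of cells came from cells thinned to 5000 UMIs. Intervals are 95% intervals. Those of shares are exact (Clopper-Pearson) and cover counting error only. Those of log2 changes come from the edgeR fit and take in the spread between libraries. The CPM that a count of 0 allows is given as the CPM of 3 UMIs.

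Named were all collagen genes with a mean of at least 10 CPM in a class, the 5 smallest p-values in endothelial-like and mesenchymal-like cells, 8 vessel and fibril chains whatever their test and Col5a2, and the 3 partner genes with the highest level per list where 0 passed. Other collagen genes named with values were chosen after their values were seen.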

Additional observations from a re-analysis of the deposited data

Results flagged for a closer look

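Only genes and tested classes with a mean of at least 10 CPM were compared here. For 2 such collagen genes both KO libraries lay on one side of both WT libraries in one class and on the other side in another. How often genes in general show this pattern was not counted, so the 2 genes are given as values only. These differences between classes were not tested. The log2 changes are of mean CPM and differ a little from the edgeR estimates. Col2a1 changed by 0.14 in neural-like and by -1.52 in epithelial-like cells, a difference of 1.65. The epithelial-like change rests largely on 149 CPM in the 23 cells of WT replicate 1. WT replicate 2 had 45.0 CPM there, and the KO libraries 37.2 and 30.6 CPM. Col18a1 changed by 0.14 in mesenchymal-like cells and by 0.14 in germ cell-like cells, but by -0.11 in arterial-like and by -0.19 in sprouting-like cells. The mesenchymal-like value lay above the arterial-like one by 0.25 and above the sprouting-like one by 0.32. The germ cell-like value lay above them by 0.25 and 0.32 as well. For Col18a1 in mesenchymal-like cells against all endothelial-like cells, the interaction in edgeR had an adjusted p of 0.599.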

How the results depend on the processing

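The count of collagen genes called between KO and WT was 0 in 11 classes. In arterial-like cells it ran between 0 and 1 with 1 library left out, being 1 (Col15a1) without KO replicate 2. In mesenchymal-like cells it was 1 without a filter on low counts (Col9a2, adjusted p = 0.0176 in edgeR) and ran between 0 and 1 with 1 library left out, being 1 (Col9a2) without WT replicate 2. With a replicate block it was 2, Col9a2 (adjusted p = 0.00102) and Col5a3 (adjusted p = 0.0261 in edgeR). Same-numbered libraries correlated by 0.16 to 0.33 in their deviations from the group means, but with 2 pairs and no label that ties them, this does not pair them. The summed collagen level was 834 ± 52.4 CPM in sinusoidal-like, 463 ± 165 CPM in neural-like and 203 ± 36.4 CPM in germ cell-like cells with doublets kept, and 2167 ± 358 CPM in sprouting-like cells with collagens used in clustering. Of the other values of this kind under an alternative, 204 kept their side of the threshold or moved by less than the spread. In endothelial-like cells Col3a1 turned to -0.13 with doublets kept, and Col5a2, at -0.00099 in the reported fit, turned to 0.0070 with RLE scaling, 0.0070 in DESeq2, 0.0079 without a filter and 0.0020 with thinned sums. Fits with 1 library left out have a group of 1, whose library is assumed to vary like the other group. With 1 library left out, log2 changes in endothelial-like cells ran between -0.41 and 0.10 for Col4a2, -0.76 and 1.66 for Col1a1, -0.24 and 0.51 for Col1a2, -0.056 and 0.11 for Col3a1 and -0.088 and 0.088 for Col5a2. In mesenchymal-like cells they ran between -0.22 and 0.16 for Col4a1, -0.33 and 0.28 for Col4a2, -0.98 and 0.50 for Col15a1, -0.12 and 0.83 for Col1a1, -0.025 and 0.27 for Col1a2, -0.11 and 0.36 for Col3a1 and -0.14 and 0.27 for Col5a1. The cause was not tested. With 2 libraries a group many intervals are wide, and genes under 5 CPM rest on few UMIs.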

Other observations

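A cluster of 53 cells that stayed unnamed, with Foxd3, Phactr1, Sox10 and Erbb3 among its leading genes, had 37 and 0 cells in the KO libraries and 10 and 6 cells in the WT libraries, so KO and WT were not compared there. It held Col1a2 at 127 CPM in KO replicate 1, against 193 and 122 CPM in the WT libraries. Col1a1, which forms type I collagen with Col1a2, was at 0.956 CPM in KO replicate 1 and at 14.7 and 5.29 CPM in the WT libraries. Col18a1 stood at 69.8 CPM in KO replicate 1 and at 86.2 and 89.8 CPM in the WT libraries. Endocardial-like cells had Col3a1 with little Col1a1, and this cluster had Col1a2 with little Col1a1, while mesenchymal-like cells had all 3 genes at 138 CPM or more in each library.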
